A study of Mus musculus with 30 samples.

Results

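Peaks of open chromatin that lie in an intron other than the first were described in mouse retinal ganglion cells, which send the eye's output to the brain, with and without crush of the optic nerve that carries their axons. A peak was taken where the authors' annotation placed it in an intron and that intron was not the first of its transcript, a rule that uses position alone. It held for 36837 of the 151630 peaks in the deposited table (24.3%), in 7900 host genes on 20 chromosomes. Chromatin accessibility had been measured by ATAC-seq, in which a transposase inserts adapters into DNA that is not covered by nucleosomes. The groups were 6 libraries from eyes without crush, called day 0, 3 libraries from 1 day after crush and 6 libraries from 3 days after crush. All were from mice labelled C57BL/6, whose retinas were dissociated with papain and whose ganglion cells were collected by fluorescence-activated sorting. RNA-seq of sorted cells from the same times, with 3 libraries each for days 0, 1 and 3, gave the transcript levels of the host genes. The labels do not say that the libraries of a day came from separate animals, so p-values measure the spread between these libraries, which may be partly technical. The deposited column names also carry the word nonTarget, whose meaning the labels do not give.

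Introns are spliced out of transcripts, but their DNA holds many of the enhancers of mammalian genomes, and the first intron lies next to the promoter whereas later introns can lie far from it. An enhancer in an intron can act on its host gene or on another gene nearby, so a host is named here as the place of a peak and not as its target. Injured retinal ganglion cells are known to respond through DLK and JNK kinases and through transcription factors of the AP-1 and ATF families, and most of them later die.

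The authors' annotation sets peaks within 3 kb of its own gene starts apart as promoters, so few later-intron peaks could contain a start. The ones that held a start listed in RefSeq are the only ones whose sequence could be read here. Of the 32817 promoter windows in a RefSeq table of build GRCm38.p6, each running from 250 bases before a gene's start to 50 after it, 142 lay whole inside 122 later-intron peaks. In 9 of the 122 peaks the start belonged to the host gene itself, and in the others to another gene inside or across the intron. The AP-1 sequence TGANTCA, searched on both strands, was in 15 of the 142 windows (10.6%), against 2564 of all 32817 windows (7.81%). The cyclic AMP response element TGACGTCA, which shares no full match with it, was in 1 of the 142 (0.704%), against 1.79% of all windows. They were among 16 motifs searched, and AP-1 did not stand out. The KLF motif was in 20.4% against 17.6%, the homeobox motif in 7.75% against 5.3% and the MEF2 motif in 2.11% against 0.518%. Lower shares were found for C/EBP (9.15% against 10.8%) and the CTCF core (6.34% against 7.23%). These differences were not tested. The 3 windows below are shown as examples that hold TGANTCA, in capitals, inside peaks that changed by day 3: the first 2 peaks rose and the last fell.
Gm34349 in Bcar3, chr3:122480178-122480477 (-): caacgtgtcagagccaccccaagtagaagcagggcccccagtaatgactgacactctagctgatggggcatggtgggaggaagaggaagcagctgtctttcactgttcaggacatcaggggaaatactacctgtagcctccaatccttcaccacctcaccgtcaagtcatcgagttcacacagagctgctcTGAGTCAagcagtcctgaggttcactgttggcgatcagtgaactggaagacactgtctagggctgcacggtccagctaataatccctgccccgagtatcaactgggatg
Gm51738 in Esrrg, chr1:188018181-188018480 (-): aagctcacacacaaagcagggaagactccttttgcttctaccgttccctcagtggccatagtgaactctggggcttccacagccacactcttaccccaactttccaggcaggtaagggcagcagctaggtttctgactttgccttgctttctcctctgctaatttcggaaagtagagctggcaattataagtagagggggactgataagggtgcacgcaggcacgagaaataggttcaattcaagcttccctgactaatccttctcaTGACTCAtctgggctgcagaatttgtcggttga
Gm30569 in Nrip1, chr16:76300471-76300770 (+): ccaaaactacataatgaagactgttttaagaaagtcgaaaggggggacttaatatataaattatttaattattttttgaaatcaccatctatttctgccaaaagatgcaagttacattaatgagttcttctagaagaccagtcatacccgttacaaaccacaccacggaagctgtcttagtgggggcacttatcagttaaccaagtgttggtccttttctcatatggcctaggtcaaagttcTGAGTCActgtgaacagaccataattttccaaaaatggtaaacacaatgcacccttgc
The peak in intron 3 of 11 of Bcar3, an adaptor in integrin signalling, had a lowest, median and highest value of 10.1, 11.9 and 16.4 CPM (counts scaled by library size and TMM factor) on day 3, against 6.16, 8.20 and 11.9 CPM on day 0. The peak in intron 3 of 3 of Esrrg, an orphan nuclear receptor gene, had 3.82, 4.78 and 7.03 CPM on day 3, against 2.97, 3.42 and 4.02 CPM on day 0. The ranges of the 2 days overlapped in both cases, and the fitted log2 fold changes, which compare the days within batches, were 0.51 in Bcar3 (edgeR quasi-likelihood test, adjusted p = 0.0027) and 0.54 in Esrrg (adjusted p = 0.00737). In Nrip1, a nuclear receptor corepressor gene, the peak in intron 3 of 3 had 6.03, 8.33 and 10.4 CPM on day 3, against 10.8, 12.3 and 16.6 CPM on day 0, with no overlap and a log2 fold change of -0.70 (edgeR adjusted p = 0.000657). Of the 122 peaks 29 were higher and 9 lower on day 3, against 18.7% higher and 7.11% lower of all later-intron peaks and 16.4% and 7.39% of all peaks. The sequence TGANTCA was in 4 of the 32 windows of the higher and in 2 of the 10 windows of the lower ones. For the homeobox motif these numbers were 4 and 1, and for the KLF motif 6 and 5. These matches are of letters only and show no binding.

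Later-intron peaks were of a kind with other peaks away from promoters. Their median width was 622 bp (quartiles 384 and 1022 bp), against 676 bp for the 21189 first-intron peaks, 634 bp for the 38548 distal intergenic peaks and 1421 bp for the 39399 promoter peaks, which the authors' annotation lets reach 3 kb from a start. Their median GC content was 47.3%, against 47.4% in first introns, 47.2% in distal intergenic peaks and 50.0% in promoters. Intron 2 held 11257 of them (30.6%), the median intron number was 4, the highest was 148, in Neb, the gene of the muscle protein nebulin, and 5044 (13.7%) lay in the last intron of their transcript. The nearest annotated start was that of the host for 21730 peaks (59.0%) and that of another gene for 15107, at a median distance of 14.3 kb (quartiles 6.48 and 31.3 kb). Their spread over hosts was uneven: 3107 hosts held a single peak, and the 936 hosts with 10 or more held 52.1% of all peaks. The median level was 2.66, 2.93 and 2.88 CPM per kb of peak on days 0, 1 and 3.

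The depth of the 15 ATAC libraries was 20006724 to 72579102 counts in peaks and that of the RNA libraries 19024286 to 27561352 counts in genes. All 36837 later-intron peaks passed the filter on low counts and none was at 0 in any library, so no member had to be left out. The authors' sample sheet gives 2 batches. Batch 2 held replicates 1 to 3 of all 3 days, and Batch 1 held replicates 4 to 6 of days 0 and 3, so day 1 was measured in 1 batch only. The share of a library's reads that fell in peaks, as deposited, was 32.2% to 49.6% on day 0, 15.7%, 18.6% and 18.4% in the day 1 libraries, and 17.3% to 45.6% on day 3. The day 3 libraries split, with replicates 2, 3 and 4 at 17.3% to 19.7% and replicates 1, 5 and 6 higher, at up to 45.6%.

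More of the counts fell in later introns after crush in all but 1 library. The share was 10.4%, 10.7% and 10.6% in the day 1 libraries, against 8.69% to 9.10% (median 8.85%) in the day 0 libraries, with no overlap. On day 3 it was 8.83%, 10.3%, 10.2%, 11.01%, 9.39% and 9.61% in replicates 1 to 6, so replicate 1 lay within the day 0 range and the other 5 lay above it. Within batches, the difference was 1.74 percentage points for day 1 against day 0 (exact permutation test, two-sided p = 0.1, the smallest that 3 against 3 allows; adjusted over 9 such tests, 0.18). For day 3 against day 0 it was 1.02 points (exact permutation p = 0.01, smallest possible 0.005, adjusted 0.09), and 0.977 and 1.07 points within the 2 batches taken singly. The day 3 libraries with the lowest share of reads in peaks had the highest shares in later introns, and the part of reads in peaks in this result was not tested.

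Set against first introns, the shift within batches was small. The log2 ratio of later-intron to first-intron counts averaged 0.72 ± 0.0718 on day 0 (SD, n = 6), 0.67 ± 0.0109 on day 1 (n = 3) and 0.73 ± 0.075 on day 3 (n = 6). Its within-batch difference was 0.016 on day 1 and 0.011 on day 3, with exact permutation p-values of 0.5 and 0.375 (adjusted 0.619 and 0.563). Against distal intergenic peaks the ratio stood 0.11 higher on day 1 than on day 0 (exact permutation p = 0.1, the smallest possible, adjusted 0.18), and on day 3 it differed by -0.013 (exact permutation p = 0.55, adjusted 0.619).

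**Figure D1:**
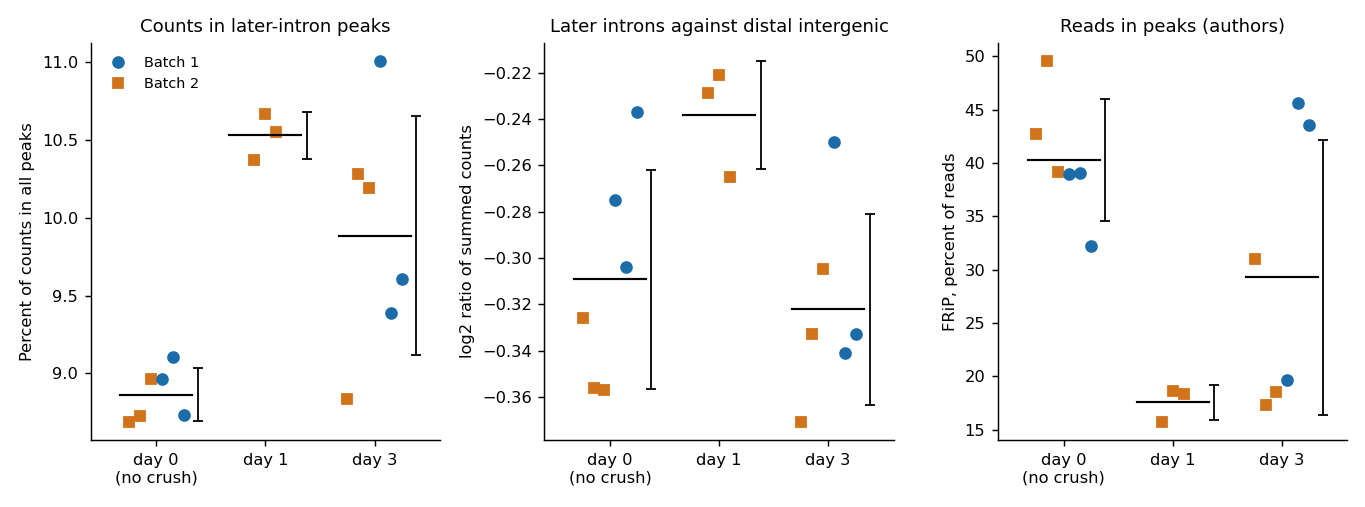
Share of counts in later-intron peaks (percent), log2 ratio of later-intron to distal intergenic counts, and share of reads in peaks (percent) for each ATAC library by day. Circles are Batch 1 libraries, squares Batch 2 libraries, lines are means and bars ± 1 SD; the day 1 libraries lie at 10.4% to 10.7% in the left panel, above every day 0 library.

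The question of the main comparison was which peaks opened or closed by 3 days after the crush. On day 3, 6879 of the 36837 later-intron peaks (18.7%) were higher and 2620 (7.11%) lower than on day 0 at an adjusted p under 0.05 (edgeR quasi-likelihood test with batch as a term, Benjamini-Hochberg adjustment over all 151630 peaks). Of all peaks, 16.4% were higher and 7.39% lower, so the share of later-intron peaks that rose was slightly above the background. At least a 2-fold change was found for 2531 of the higher and 58 of the lower ones, against 9246 and 249 of all peaks. The larger changes were therefore nearly all gains, in later introns as over all peaks. The 5% and 95% quantiles of the log2 fold change were -0.55 and 1.13 (-0.52 and 1.09 over all peaks), around a median of 0.05 (0.03 over all peaks). First introns had 17.3% higher and 6.14% lower, distal intergenic peaks 22.1% and 6.87%, and promoters 10.1% and 8.97%. By the share that rose, later introns stood between first introns and distal peaks, and these differences between classes were not tested.

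The balance of gains and losses depended on scaling. When each library's trend of signal with peak strength was removed first, 5951 later-intron peaks were higher (16.2%) and 4003 lower (10.9%), against 15.2% and 9.86% of all peaks, so 59.8% of the calls were gains, against 72.4% without that step. After that step the median log2 fold change on day 3 was -0.04 (-0.03 over all peaks). In the authors' deposited values it was -0.05 (-0.06 over all peaks). Scaling by library size alone moved the median of later-intron peaks to 0.36 for day 1 against day 0. It was then 0.10 for day 3 against day 0 and -0.23 for day 3 against day 1. Within Batch 2, which holds all 3 days, 6981 rose and 4150 fell on day 3, and within Batch 1, 1753 rose and 132 fell. Without the 3 day 3 libraries of a low share of reads in peaks and without day 1, 3769 rose and 670 fell. In the authors' deposited table, 4876 later-intron peaks (13.2%) were higher and 3344 (9.08%) lower on day 3, against 11.8% and 8.56% of all peaks. Across libraries, 3267 of the higher and 915 of the lower calls had no overlap between the 2 days within either batch. Called or not, 9.09% of all later-intron peaks were higher and 2.85% lower without overlap. Counts without overlap and from subsets of libraries were not taken over all peaks. Whether later introns differ from other peaks in them is therefore not known.

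**Figure D2:**
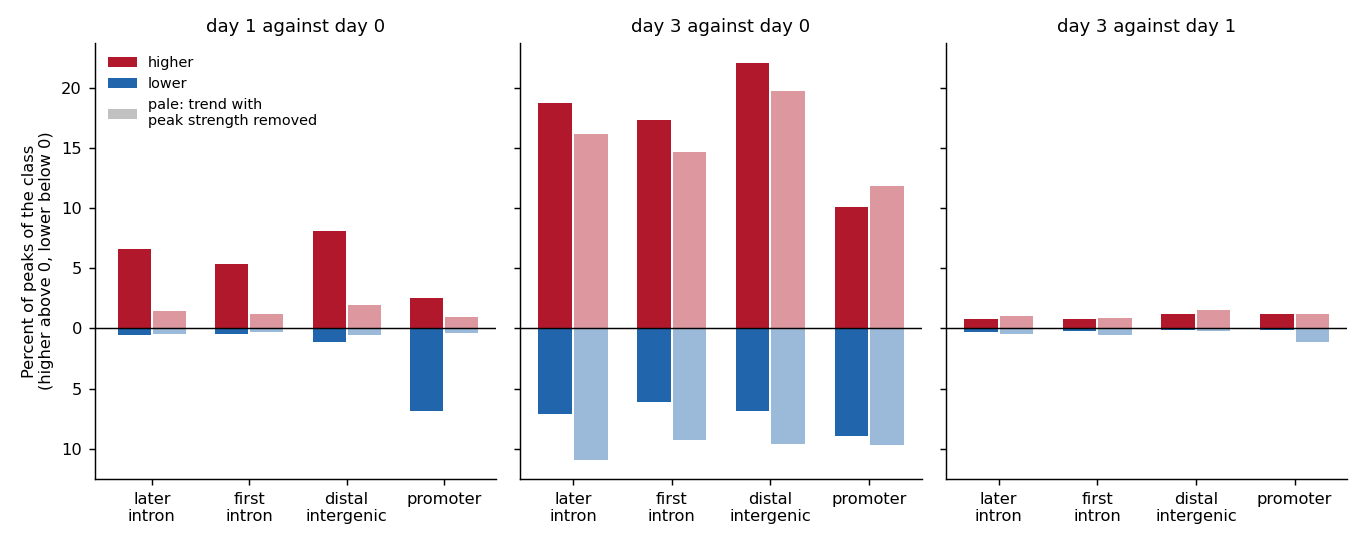
Percent of peaks called higher (upward) and lower (downward) in each peak class and comparison, with adjusted p under 0.05; pale bars are the counts after the trend with peak strength was removed. Later introns have 18.7% higher and 7.11% lower on day 3 against day 0, between promoters and distal intergenic peaks.

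The share of peaks that rose by day 3 varied more with distance from a start and with strength than with the number of the intron. It was 19.2% for intron 2, 19.9% for intron 3, 18.6% for introns 4 to 5, 17.8% for introns 6 to 10 and 17.5% from intron 11 on, and 17.7% in last introns. By distance to the nearest start it was 14.7% under 5 kb, 17.4% at 5 to 20 kb, 20.6% at 20 to 50 kb and 24.5% beyond 50 kb, while the share that fell was 6.21%, 7.14%, 6.95% and 8.50% over the same steps. Peaks nearest to the start of another gene rose in 19.9% of cases, against 17.8% of those nearest to the host's own start. Of 4 equal groups by strength, the strongest had 28.4% higher and 8.55% lower and the weakest 7.30% and 4.09%, a range in which the counts available for the test also differ. By GC content the share that rose was 19.4% in the lowest and 17.1% in the highest of 4 such groups. Hosts with 10 or more peaks had 20.2% of them higher, and hosts with a single peak 14.9%.

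Among called peaks with a mean count of 50 or more and no overlap within batches, the 8 largest gains by day 3 were between 5.67-fold and 7.08-fold, in introns of genes of signalling, guidance and uncharacterized transcripts. The peak at chr12:52950553-52951139, in intron 7 of 13 of Akap6, which encodes a scaffold that anchors protein kinase A at the nuclear envelope, had a lowest, median and highest value of 2.54, 4.37 and 7.89 CPM on day 3, against 0.519, 0.612 and 0.915 CPM on day 0. Every day 3 library lay above every day 0 library, a 7.08-fold gain (log2 fold change 2.82, SE 0.243, edgeR adjusted p = 1.39e-07), and the 3 day 1 libraries, at 1.59, 1.11 and 2.36 CPM, lay between them. At chr17:75344918-75345741, in intron 25 of 34 of Ltbp1, a protein that binds latent TGF-beta outside cells, the values were 3.01, 4.05 and 5.00 CPM on day 3, against 0.378, 0.667 and 0.987 CPM on day 0. This 5.79-fold gain (SE 0.199 on the log2 scale, adjusted p = 6.84e-08) stood beside a gain of Ltbp1 RNA of 2.56 on the log2 scale (SE 0.948, adjusted p = 0.0401). The peak at chr10:121903750-121904699, in intron 3 of 21 of Srgap1, a GTPase-activating protein of the Slit and Robo guidance pathway, had 6.92, 10.8 and 17.6 CPM on day 3, against 1.15, 2.25 and 2.66 CPM on day 0. It was 5.78-fold higher (SE 0.226 on the log2 scale, adjusted p = 1.77e-07), again with no overlap between the days, while Srgap1 RNA had a log2 fold change of 0.16 (adjusted p = 0.0882). Others among the 8 largest were in Gm4894 (7.08-fold), Gm41335 (6.80-fold), Gm47695 (6.26-fold), Atxn10 (6.08-fold) and Npas3 (5.67-fold), the last a neuronal bHLH-PAS transcription factor whose RNA rose by 2.36 on the log2 scale (adjusted p = 0.00626). Atxn10 RNA had a log2 fold change of -0.28 (adjusted p = 0.00349).

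By the same rule, the 8 largest losses had log2 fold changes of -1.52 to -1.03, smaller in size than the gains; over all later-intron peaks, called or not, the lowest was -2.28 and the highest 2.82. In intron 9 of 12 of Gm49721 (chr17:7005603-7005978) the values were 0.478, 1.46 and 2.49 CPM on day 3, against 2.62, 3.91 and 6.87 CPM on day 0, a log2 fold change of -1.52 (SE 0.293, adjusted p = 0.000566). No day 3 library reached the lowest day 0 library. In intron 3 of 15 of Ano2, a calcium-activated chloride channel (chr6:125726435-125728887), they were 6.14, 9.51 and 14.3 CPM on day 3, against 14.6, 19.4 and 27.7 CPM on day 0. The log2 fold change was -1.06 (SE 0.183, adjusted p = 0.000187), the days did not overlap, and Ano2 RNA differed by -0.69 with an adjusted p of 0.271. Within Batch 1 alone the Ano2 peak differed by -0.57 (adjusted p = 0.0528). In Prkce, protein kinase C epsilon, the peak in intron 2 of 14 (chr17:86429649-86430853) had 2.58, 3.52 and 4.94 CPM on day 3, against 6.11, 7.71 and 8.73 CPM on day 0. Both the peak (log2 fold change -1.05, SE 0.143, adjusted p = 1.4e-05) and the RNA of Prkce (-0.89, SE 0.0831, adjusted p = 1.75e-07) fell. Shank2, a scaffold of excitatory synapses, had a peak in intron 10 of 22 that fell (log2 fold change -1.05, adjusted p = 7.55e-05), as did its RNA (-0.60, adjusted p = 0.0046). The remaining largest losses were in D5Ertd615e (-1.18), 5830444B04Rik (-1.13), the muscle gene Smpx (-1.11) and Macrod2 (-1.03).

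**Figure D3:**
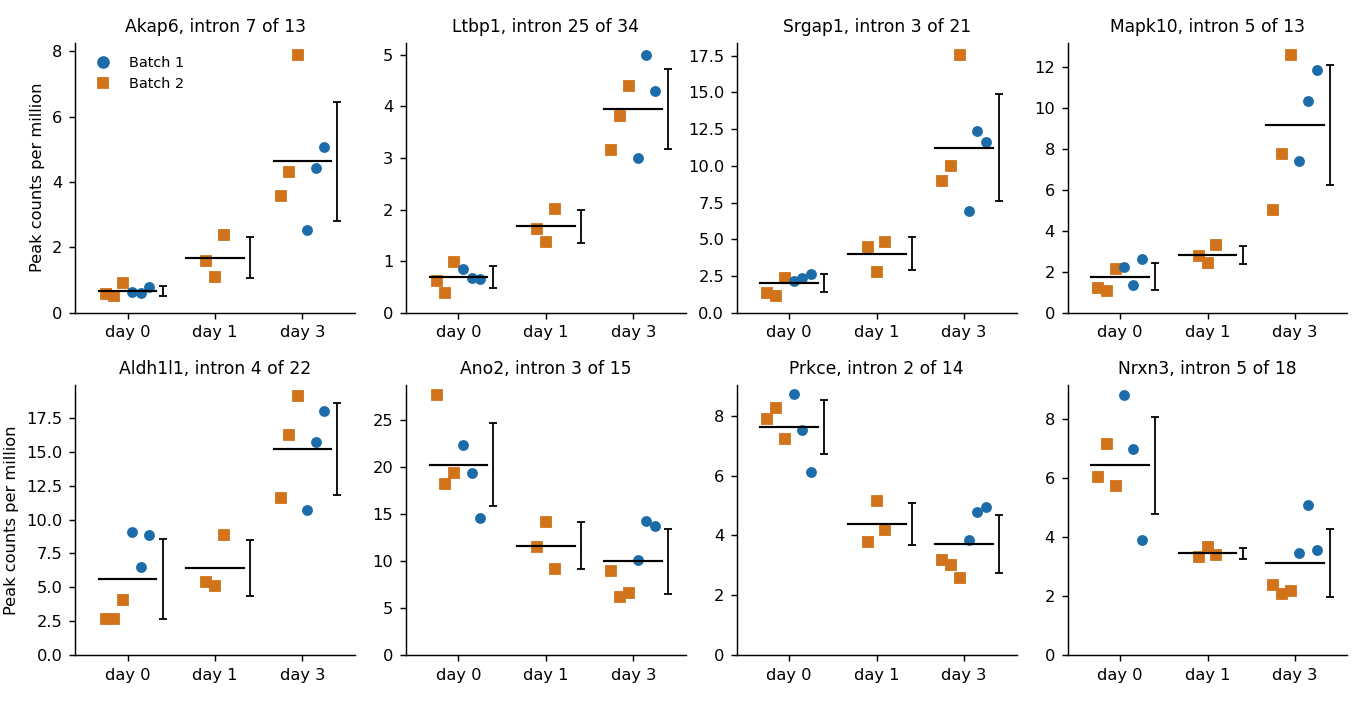
CPM (counts scaled by library size and TMM factor) of 8 later-intron peaks in each ATAC library by day, with host genes as panel titles; circles are Batch 1, squares Batch 2, lines are means and bars ± 1 SD. Akap6, Ltbp1, Srgap1 and Mapk10 peaks are higher on day 3 than in any day 0 library, and the day 3 libraries of the Ano2 and Prkce peaks lie below all day 0 libraries.

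Hosts with many peaks differed widely in how their later introns moved. Nav2, a microtubule-binding neuron navigator, held the most, 143 peaks, of which 62 (43.4%) rose and 3 fell by day 3, against 18.7% and 7.11% of all later-intron peaks. Its RNA had a log2 fold change of -0.30 (adjusted p = 0.11). Kirrel3, a cell-adhesion protein of synapses, had 32 of 74 peaks higher and 2 lower, and Dab1, the intracellular adaptor of reelin, 31 of 71 higher and 2 lower. RNA of Kirrel3 fell by 0.64 on the log2 scale (adjusted p = 0.00958), and that of Dab1 differed by -0.30 (adjusted p = 0.0745). The fibroblast growth factor receptor gene Fgfr2 had 38 of 114 peaks higher and 5 lower. Losses outnumbered gains in Dscaml1, a homophilic adhesion protein of retinal neurons, where 3 of 68 peaks rose and 15 fell, and in Grid1, a glutamate receptor of the delta family, where 8 of 59 rose and 13 fell. In Camta1, a calmodulin-binding transcription activator, 15 of 105 rose and 18 fell, and in Nrxn3, a presynaptic adhesion protein, 11 of 95 rose and 15 fell. RNA of Camta1 fell by 0.89 (adjusted p = 6.22e-09) and that of Nrxn3 by 0.37 (adjusted p = 0.00662). Peaks of 1 host share that gene's locus and are not independent of each other.

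**Figure D4:**
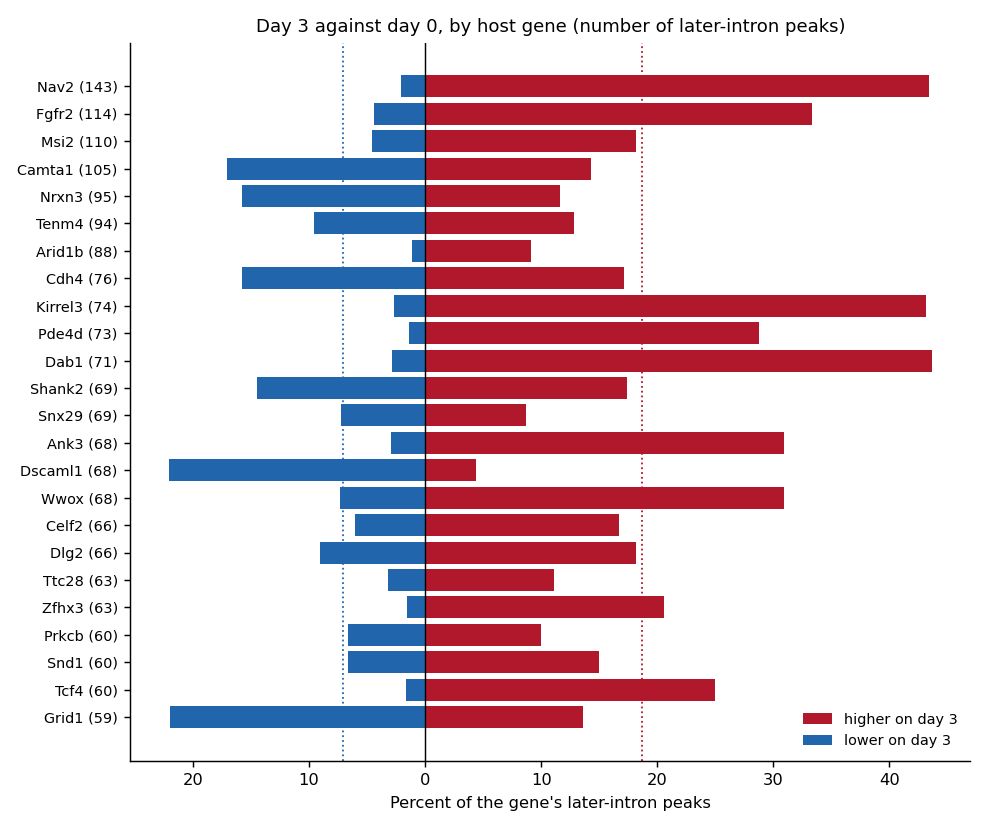
Percent of later-intron peaks called lower (left) and higher (right) on day 3 against day 0 in the 24 hosts with the most such peaks; dotted lines mark all later-intron peaks (7.11% and 18.7%). Nav2, Kirrel3 and Dab1 reach over 43% higher, and Dscaml1 and Grid1 about 22% lower.

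The RNA of the hosts moved in both directions. Of 5484 hosts tested by RNA-seq, 1144 (20.9%) were higher and 1365 (24.9%) lower on day 3 than on day 0, against 20.4% and 20.1% of all genes. On day 1, 330 (6.02%) were higher and 363 (6.62%) lower, against 5.93% and 5.45% of all genes; without day 1 replicate 1 the higher count was 200, and without day 1 replicate 3 the lower count was 200. Peaks in hosts whose RNA rose by day 3 were themselves higher in 17.5% and lower in 6.36% of cases, peaks in hosts whose RNA fell in 17.5% and 8.19%, and peaks in hosts whose RNA was tested and not called in 18.7% and 6.95%. The share of peaks that gained accessibility by day 3 was thus equal to 3 digits in hosts of higher and of lower RNA. Peaks in hosts without RNA values were higher in 21.5% and lower in 6.34% of cases. For day 1 against day 0 the shares that rose differed: 4.45% in hosts of higher RNA, 8.1% in hosts of lower RNA and 6.27% in those not called. These differences were not tested. In bulk samples of this kind, fewer cells of a type and less RNA or accessibility per cell cannot be told apart.

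Gene lists were read through their later-intron peaks, against the 18.7% higher and 7.11% lower of all such peaks and their median log2 fold change of 0.05. After removal of the trend with strength, the median of all later-intron peaks itself changed sign, to -0.04, with 16.2% higher and 10.9% lower. The medians of 3 of the lists below also changed sign. They moved to -0.04 for the integrated stress response, -0.04 for transmitter receptors and synapse and -0.08 for axon guidance and adhesion. The counts of gains and losses after that step were 53 and 68 for ion channels, where losses then outnumbered gains, 151 and 145 for axon guidance and adhesion, 154 and 107 for transmitter receptors and synapse, and 9 and 5 for the integrated stress response. They were 26 and 12 for DLK and JNK signalling, 15 and 4 for axon injury, 8 and 4 for cell death, 112 and 33 for cytoskeleton and axonal transport, 76 and 27 for growth factor and cytokine receptors, and 18 and 7 for retinal ganglion cell identity. In the DLK and JNK signalling list, 14 of 24 genes had such peaks, and 27 of the 112 peaks were higher and 4 lower on day 3 (median 0.11). Mapk10, which encodes the neuronal kinase JNK3, had 10 of its 18 peaks higher and none lower. The one with the smallest p, at chr5:102993539-102994563 in intron 5 of 13, had 5.04, 9.05 and 12.6 CPM on day 3, against 1.05, 1.73 and 2.62 CPM on day 0. Every day 3 library lay above every day 0 library, a 5.36-fold gain (SE 0.217 on the log2 scale, adjusted p = 1.87e-07), while Mapk10 RNA had a log2 fold change of -1.14 (adjusted p = 3.42e-09). All 3 peaks of Dusp16, a phosphatase that acts on JNK, rose beside a gain of its RNA of 3.63 (adjusted p = 5.15e-12). In the one with the smallest p, at chr6:134736957-134737201, the values were 0.835, 1.43 and 1.95 CPM on day 3, against 0.252, 0.545 and 1.27 CPM on day 0, which overlap. Its fold change was 2.31 (adjusted p = 0.00448), and within Batch 1 alone its log2 fold change was 0.37 (adjusted p = 0.632).

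Of the axon injury list, 9 of 35 genes had later-intron peaks, with 17 of 48 peaks higher and 2 lower on day 3 (median 0.32). Creb5, a bZIP transcription factor of the CREB and ATF family, supplied 27 of them, 9 higher and 1 lower, and its RNA rose by 5.93 on the log2 scale (SE 0.46, adjusted p = 1.86e-08). Its leading peak, at chr6:53545932-53546296 in intron 5 of 10, had 1.11, 1.24 and 1.58 CPM on day 3, against 0.294, 0.542 and 0.602 CPM on day 0, a 2.67-fold gain with no overlap (adjusted p = 2.55e-05). Cd44, a hyaluronan receptor, had 3 of 5 peaks higher, and Anxa2, annexin A2, 2 of 3. In Tmc1, a subunit of the hair cell transduction channel, none of 3 peaks passed the test, the leading one with a log2 fold change of -0.51 (adjusted p = 0.0667), while its RNA rose by 4.74 (adjusted p = 1.09e-08). Gap43, a growth cone protein, had 1 peak, with a log2 fold change of 0.22 (adjusted p = 0.35), and its RNA rose by 1.27 on the log2 scale. Atf3, Ddit3, Jun, Sox11, Klf6 and Pou4f1, injury or identity factors of these neurons, had no later-intron peak.

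The integrated stress response list had 9 of 48 peaks higher and 3 lower (median 0.05), 4 of the higher in Mthfd1l, a mitochondrial enzyme of one-carbon metabolism, and 3 in Slc7a11, the cystine transporter. In intron 26 of 27 of Mthfd1l, at chr10:4107215-4109010, the values were 11.2, 15.8 and 19.8 CPM on day 3, against 2.24, 3.94 and 5.89 CPM on day 0. The days did not overlap, the gain was 4.23-fold (SE 0.174 on the log2 scale, adjusted p = 1.09e-07), and Mthfd1l RNA rose by 1.78 (SE 0.15, adjusted p = 5.42e-08). Of the cell death list, 10 of 40 peaks were higher and 4 lower (median 0.18). Tnfrsf21, death receptor 6, had 4 of 8 higher and Bcl2l11, the BH3-only protein Bim, 3 of 6. RNA of Bcl2l11 rose by 3.91 (SE 0.128, adjusted p = 1.28e-12), and its leading peak by 1.52-fold, with 1.52, 3.55 and 6.23 CPM on day 3, against 1.12, 2.16 and 3.35 CPM on day 0, ranges that overlap (adjusted p = 0.00729). Within Batch 1 alone the log2 fold change of the Bcl2l11 peak was 0.46 (adjusted p = 0.44).

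Among genes of neuronal function, ion channels were the list in which losses came closest to gains. Of 426 peaks in 36 of 49 channel genes, 66 were higher and 45 lower on day 3 (median -0.05). Kcnma1, the BK potassium channel, had 1 of 34 higher and 9 lower, whereas Cacna2d3, an auxiliary calcium channel subunit, had 12 of 39 higher and 2 lower. A peak in intron 10 of 46 of Cacna1c, the pore of L-type calcium channels (chr6:118711677-118712579), had 4.19, 6.66 and 9.52 CPM on day 3, against 0.799, 1.45 and 2.05 CPM on day 0. It rose 5.12-fold with no overlap (SE 0.18 on the log2 scale, adjusted p = 5.07e-08), while 4 of the gene's 26 peaks fell and its RNA fell by 0.71 (adjusted p = 0.000478). In the list of transmitter receptors and synaptic proteins, 180 of 797 peaks were higher and 69 lower (median 0.04). Grin2b, an NMDA receptor subunit, had 14 of 24 higher and none lower while its RNA fell by 1.36 on the log2 scale. One Nrxn3 peak, at chr12:89282287-89283390 in intron 5 of 18, had 2.06, 2.91 and 5.08 CPM on day 3, against 3.89, 6.49 and 8.80 CPM on day 0. Its log2 fold change was -1.09 (SE 0.181, adjusted p = 0.00013), and 1 day 0 library, at 3.89 CPM, lay within the day 3 range.

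Axon guidance and adhesion genes held the most peaks of any list, 933 in 60 of 61 genes, with 185 higher and 95 lower (median 0.02). Robo1, a Slit receptor, had a peak at chr16:72896903-72897533 with 1.93, 3.26 and 3.48 CPM on day 3, against 0.289, 0.638 and 0.917 CPM on day 0. It rose 5.02-fold (SE 0.197 on the log2 scale, adjusted p = 1.16e-07) with no overlap between the days. Dscam, an adhesion protein of retinal mosaics, had 4 of 43 higher and 11 lower, and Sema5a, a semaphorin, 10 of 18 higher and none lower. Of 506 peaks in genes of the cytoskeleton and axonal transport, 132 were higher and 19 lower (median 0.17), 62 of the higher in Nav2, 21 of 68 in Ank3, ankyrin G of the axon initial segment, and 11 of 38 in Dst, dystonin. Growth factor and cytokine receptor genes had 89 of 320 higher and 18 lower (median 0.19), of which Fgfr2 gave 38 and 5, the receptor tyrosine kinase Alk 14 and 2 of its 32, and Igf1r 10 and 2 of its 45. The list of retinal ganglion cell identity had 25 of 100 higher and 5 lower (median 0.20). Rbpms, an RNA-binding marker of these cells, had a peak that rose 1.78-fold (adjusted p = 0.000833), with 1.49, 1.93 and 2.39 CPM on day 3, against 0.883, 1.08 and 1.28 CPM on day 0, while its RNA had a log2 fold change of -1.18 (adjusted p = 1.8e-09). Within Batch 1 alone the Rbpms peak differed by 0.57 on the log2 scale (adjusted p = 0.298).

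Among marker genes of other cells, those of Mueller glia and astrocytes and those of vascular cells had a larger share of peaks higher on day 3 than any list above. Of 32 later-intron peaks in 7 of 14 markers of Mueller glia and astrocytes, 21 were higher and 1 lower on day 3 (median 0.82), among them 11 of 15 in Slc1a3, the glial glutamate transporter, and 4 of 7 in Rdh10, a retinol dehydrogenase. The summed signal of the 32 peaks was 194 to 254 CPM on day 3, against 93.8 to 229 CPM on day 0, so the ranges overlapped. In RNA, 13 of the 14 markers were in the table, and their summed level was 704 to 871 CPM on day 3, against 774 to 885 CPM on day 0. A peak in intron 4 of 22 of the astrocyte gene Aldh1l1 (chr6:90560522-90562191) had 10.7, 16 and 19.1 CPM on day 3, against 2.62, 5.27 and 9.06 CPM on day 0, a 3.02-fold gain with no overlap (adjusted p = 3.51e-05), while Aldh1l1 RNA fell by 3.12 (SE 0.779, adjusted p = 0.00392). Of 27 peaks in 6 of 10 vascular markers, 16 were higher and none lower (median 0.45), including all 5 in Kdr, the main VEGF receptor, and 5 of 8 in Flt1, another one. Their summed signal was 84.6 to 113 CPM on day 3, against 57.5 to 82.5 CPM on day 0, without overlap, and the 6 vascular markers in the RNA table summed to 6.97 to 9.21 CPM on day 3, against 7.18 to 12.8 CPM on day 0. Bipolar cell markers had 12 of 60 higher and 2 lower, 11 and 1 of them in Prkca. The other lists had few calls: rods 1 of 29 higher, cones 1 of 22 higher and 4 lower, amacrine and horizontal cells 1 of 21 higher and 2 lower, microglia and macrophages 1 of 26 higher, and oligodendrocytes 3 of 15 lower. Markers of retinal ganglion cells stood far above all of these in RNA, at 8513 to 8906 CPM on day 3, against 10580 to 11286 CPM on day 0 for 12 genes. Some sums differed widely between RNA libraries of 1 day. Rod markers had 279 to 1236 CPM within day 0, and microglia and macrophage markers 178 to 1135 CPM within day 1. The part of other cells in the changes above was not tested.

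**Figure D5:**
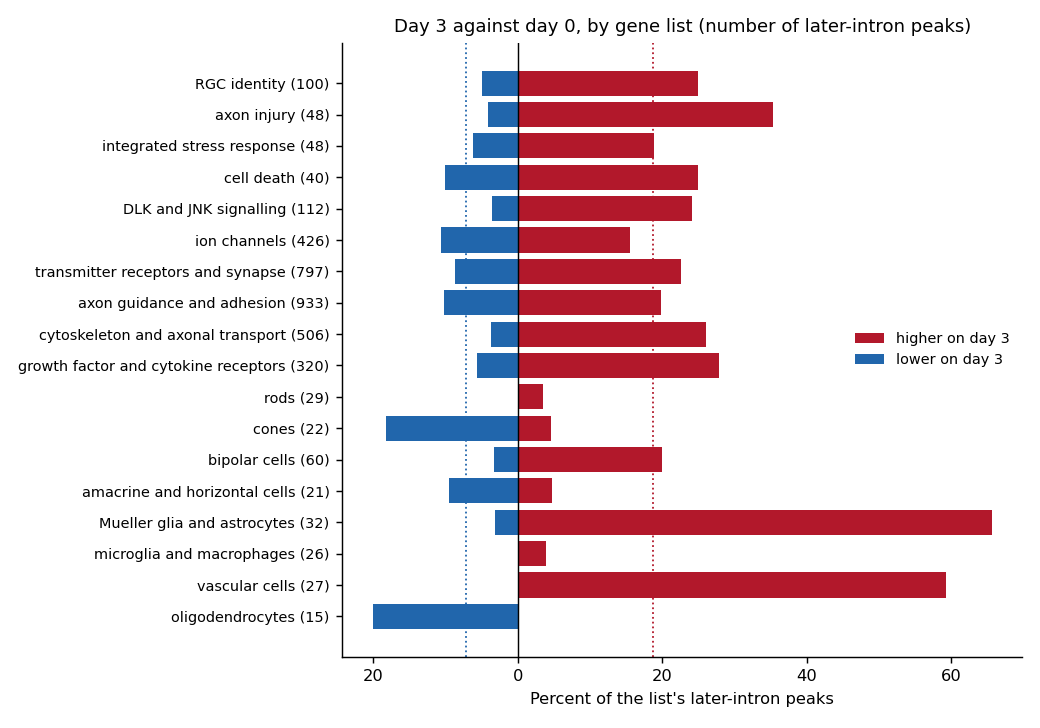
Percent of later-intron peaks called lower (left) and higher (right) on day 3 against day 0 in each of 10 gene lists and 8 marker lists; dotted lines mark all later-intron peaks. Mueller glia and astrocyte markers (65.6% higher) and vascular markers (59.3% higher) stand farthest to the right, and ion channels have 15.5% higher and 10.6% lower.

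One day after the crush, gains already outnumbered losses, though the counts rested on 3 libraries from 1 batch. On day 1, 2425 later-intron peaks (6.58%) were higher and 211 (0.573%) lower than on day 0, against 5.44% and 2.40% of all peaks. With the replicate number as a block in place of batch, 1413 were higher and 74 lower. Counts with that block or without single libraries were not taken over all peaks. At least a 2-fold change was found for 781 of the higher and 14 of the lower ones, against 3050 and 71 of all peaks. The median log2 fold change was 0.15 (0.06 over all peaks), and it depended on scaling. With the trend with peak strength removed it was 0.01 (-0.01 over all peaks). In the authors' deposited values it was -0.003 (-0.02 over all peaks). Promoters had 2.52% higher and 6.90% lower, whereas first introns had 5.34% and 0.477% and distal intergenic peaks 8.12% and 1.13%. After removal of the trend with peak strength, 546 (1.48%) were higher and 156 (0.423%) lower, against 1.40% and 0.414% of all peaks, so 77.8% of the calls were gains, against 92.0% before. Promoters then had 0.977% higher and 0.35% lower, so that gains outnumbered losses there too. In the authors' deposited table, 768 (2.08%) were higher and 702 (1.91%) lower on day 1, against 1.66% and 2.15% of all peaks. Leaving out single libraries moved these counts: gains numbered 1168, 109 and 96 when day 1 replicate 1, 2 or 3 was dropped, and 283, 1371 and 812 for day 0 replicate 1, 2 or 3. Losses numbered 22, 2 and 5 for those day 1 replicates, 9, 88, 15 and 411 for day 0 replicate 1, 2, 3 or 6, and 332, 432, 455 and 440 for day 3 replicate 2, 3, 4 or 6.

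The Robo1 peak had the largest day 1 gain among those named, with 1.80, 1.26 and 1.63 CPM on day 1, against 0.289, 0.638 and 0.917 CPM as the lowest, median and highest on day 0, a 3.01-fold difference (SE 0.257 on the log2 scale, edgeR adjusted p = 0.00651). No day 1 library overlapped with day 0. Others among the 8 largest were in Enox1 (2.81-fold), a cell-surface oxidase, in Tmem132b (2.70-fold), in Dlgap2 (2.68-fold), a postsynaptic scaffold, and in Ltbp1 (2.57-fold). Among the largest losses, some peaks differed between batches on day 0. In Dtd1, a tRNA-editing deacylase, the values were 1.35, 1.04 and 1.81 CPM on day 1, against 3.29, 3.41 and 3.75 CPM in the day 0 libraries of the same batch and 0.368, 0.408 and 0.5675 CPM in those of Batch 1. In Cask, a scaffold kinase of synapses, the peak at chrX:13710090-13710777 had 1.35, 1.56 and 1.67 CPM on day 1, against 2.77, 3.64 and 3.20 CPM in the same batch and 2.32, 2.72 and 2.88 CPM in Batch 1 on day 0. Its log2 fold change was -1.01 (SE 0.223, adjusted p = 0.0162). Without the batch term none of the 43 peaks named for day 1 against day 0 passed the test, and with each library's share of reads in peaks as a further term 14 of the 43 still passed in the same direction.

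By gene list, day 1 gains were most frequent in genes of retinal ganglion cell identity, with 25 of 100 peaks higher and none lower, against 6.58% higher and 0.573% lower of all later-intron peaks. Ebf3, a transcription factor of the EBF family, held 17 of the 25 in its 27 peaks, and its paralog Ebf1 had 4 of 17. Transmitter receptors and synaptic proteins had 106 of 797 higher and 1 lower, guidance and adhesion genes 93 of 933 and 1, and ion channels 51 of 426 and none. Single genes with frequent gains were Cacna2d3 (17 of 39), Grm8, a metabotropic glutamate receptor (11 of 22), Ptprt, a receptor phosphatase (9 of 17), Sema5a (8 of 18) and Ntrk3, the neurotrophin-3 receptor (7 of 16). Cytoskeleton and axonal transport genes had 49 of 506 higher and growth factor and cytokine receptors 28 of 320, with none lower in either. Axon injury genes had 8 of 48 and integrated stress response genes 3 of 48 higher, DLK and JNK genes 9 of 112 higher and 1 lower, and cell death genes 1 of 40 in each direction. After removal of the trend with strength these counts were smaller, with 9 gains for identity, 16 for synaptic, 20 for guidance, 16 for channel, 14 for cytoskeleton, 8 for growth factor receptor, 3 for DLK and JNK and 1 for axon injury genes, and 0 for integrated stress response and cell death genes, where 3 and 1 were called by the same edgeR test without that step. Losses were then 1 each for guidance, growth factor receptor and cell death genes and 0 for the other lists. Among markers of other cells, Mueller glia and astrocytes had 4 of 32 peaks higher on day 1 (12.5%, median log2 fold change 0.46), bipolar cells 4 of 60 higher and 1 lower, amacrine and horizontal cells 2 of 21 higher, vascular cells 1 of 27 and oligodendrocytes 1 of 15 higher, microglia and macrophages 1 of 26 lower, and rods and cones no call.

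Between day 3 and day 1 few later-intron peaks passed the test, and without the batch term none of the 29 named for it did. Of the 36837, 301 (0.817%) were higher and 96 (0.261%) lower on day 3 than on day 1, against 0.987% and 0.193% of all peaks, and the median log2 fold change was -0.07. After removal of the trend with strength the counts were 386 (1.05%) and 165 (0.448%), against 1.15% and 0.617% of all peaks. Counts from DESeq2 and without single libraries were not taken over all peaks. Leaving out day 1 replicate 1 or 2 left 0 in both directions. With all libraries, 7546 had an unadjusted p under 0.05 in the edgeR test, and DESeq2 called 859 and 428. Gains numbered 598, 102, 139 and 500 when day 0 replicate 2, 3, 5 or 6 was dropped, and 158, 592 and 189 for day 3 replicate 1, 4 or 5. Losses numbered 46, 440, 12, 157, 20 and 235 for day 0 replicate 1 to 6, 40 for day 1 replicate 3, and 30, 32, 36, 265, 47 and 37 for day 3 replicate 1 to 6.

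Peaks that gained late included one in Sec1, a fucosyltransferase gene, at chr7:45679600-45680686. Its lowest, median and highest values on day 3 were 6.82, 8.79 and 15.2 CPM, against 4.47, 2.48 and 4.42 CPM in the 3 day 1 libraries, a 2.95-fold difference (edgeR adjusted p = 0.0102). The peak in 1700025G04Rik was 3.22-fold higher (adjusted p = 0.0102), that in Dlgap1, a postsynaptic scaffold, 2.94-fold, and the Mapk10 peak described above 2.87-fold. Other peaks were higher on day 1 than on both other days. In intron 6 of 15 of Ebf3 (chr7:137295461-137295863) the day 1 libraries had 1.23, 1.69 and 1.60 CPM, against 0.578, 0.724 and 1.09 CPM as the lowest, median and highest on day 0, a 2.37-fold gain (SE 0.22 on the log2 scale, adjusted p = 0.00761). On day 3 the same peak had 0.630, 0.929 and 1.44 CPM and a fold change of 0.509 against day 1 (adjusted p = 0.0416, or 0.0605 with the replicate block), and of 1.21 against day 0 (adjusted p = 0.32). Peaks in Sema5a and in Plxna4, a semaphorin coreceptor, had the same course, with fold changes of 2.49 and 2.57 on day 1 against day 0 and of 0.499 and 0.451 on day 3 against day 1. Stom, the membrane protein stomatin, had a peak that fell to 1.34, 1.55 and 1.90 CPM on day 3, against 3.24, 2.96 and 2.71 CPM on day 1, with no overlap (fold change 0.496, adjusted p = 0.0153).

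The authors also deposited footprint scores at sites of 4 bZIP factors, computed on the libraries of each day pooled, so they carry no replicate error and are given as a description. The rule by which sites entered those tables is not given in the sources used here, and 0 of the listed sites were bound on day 0 and unbound on day 3. ATF3, an early injury-induced factor, had 3383 of its 20364 sites (16.6%) in 2870 later-intron peaks, and 19.1%, 65.7% and 78.9% of them were scored as bound on days 0, 1 and 3, against 32.6%, 72.7% and 81.5% of all listed ATF3 sites. For ATF4, the effector of the integrated stress response, the shares over 1027 sites were 15.5%, 62.9% and 75.3%, against 25.8%, 69.3% and 77.4% of all its listed sites. For CEBPG, a dimer partner of ATF4, they were 16.1%, 63.3% and 76.6% over 1570 sites, against 27.7%, 70.9% and 78.4%. For DDIT3, also called CHOP, they were 15.3%, 64.8% and 75.7% over 1101 sites, against 25.1%, 70% and 77.8%. Of the 2870 peaks with an ATF3 site, 48.5% were higher and 2.30% lower on day 3, against 16.2% and 7.52% of the 33967 without one. Peaks with a site were also wider, with a median of 998 bp against 600 bp, and the scores come from the same libraries as the counts, so the contrast is no independent evidence. The Srgap1 peak held 5 ATF3 sites, and the one at chr10:121904272-121904280 scored 0.13, 0.233 and 0.511 on days 0, 1 and 3. In the Mapk10 peak the site at chr5:102994238-102994246 scored 0.0598, 0.166 and 0.455 on those days.

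In the authors' deposited table of peak and gene pairs, 28626 pairs involved 16760 later-intron peaks, each with a gene other than the host. A p under 0.05 was listed for 2640 of them (9.22%), against 9.29% of all 169469 pairs. The p-values listed there reach no higher than 0.5001 and the pairs listed have positive correlations, so a negative relation could not appear among them. Among the peaks named above, the Sec1 peak was paired there with several genes at a p under 0.05. They were Rpl18 (authors' correlation 0.886, p = 0.0183), Ppp1r15a, the GADD34 phosphatase subunit of the stress response (0.857, p = 0.0217), Ftl1 (0.818, p = 0.0268) and Ruvbl2 (0.773, p = 0.0341). Other such pairs included the Stom peak with Dab2ip (authors' correlation 0.924, p = 0.0147) and the Cacna1c peak with Zfp9 (0.913, p = 0.0157).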

How the data were processed

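Counts of ATAC reads per peak and of RNA reads per gene were used as the authors deposited them; per the submitters' processing notes the tools included Bowtie2, MACS2, STAR, featureCounts and ChIPseeker, with builds mm10 and GRCm38, with no versions stated. The fraction of reads in peaks and the GC fraction, the log2 fold changes with their p-values, and the footprint scores and peak to gene correlations with p-values were the authors' deposited values. Each ATAC sample's description field names the peak file of another sample, so columns were matched to samples by title and peak files of single libraries were not used. The table of peak and gene pairs also holds 18 columns of single libraries that were not used. Of 15 labelled RNA samples 13 had columns and the other 2 were not analysed here; 2 of the day 0 RNA samples carry other strain labels, C57BL/7 and C57BL/8.

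Both tables were fitted with edgeR 4.0.16 in R 4.3.3 (quasi-likelihood F test, TMM factors, filterByExpr), the ATAC table with batch and day over all 15 libraries and the RNA table with day over 13, with Benjamini-Hochberg adjustment over all 151630 peaks or 13737 genes and a threshold of 0.05. Standard errors are on the log2 scale, as the fold change over the square root of F. For the trend with peak strength, a lowess curve (span 0.3) of each library's log2 CPM (prior count 2) was removed as an offset. Shares and ratios of a library were compared within batches by exact permutation. Same-numbered day 1 and day 0 ATAC libraries deviated together (correlations 0.122, 0.122 and 0.280), so the fit with the replicate number as a block stands beside those counts. On simulated counts of 20000 peaks for day 3 against day 0, the fit called 100% of 4-fold and 90% of 2-fold gains. It called 100% of 4-fold and 80% of 2-fold losses. The simulation changed 50 peaks per fold and gave all peaks the same dispersion. It held no difference between batches or in reads in peaks, so these rates do not give the power in the real libraries. Named peaks were, with at most 1 per host, the 8 largest gains and losses per comparison among called peaks of mean count 50 or more whose days did not overlap within batches, up to 2 peaks per gene list with the smallest p, and the peak of smallest p in each of 15 chosen genes. Alternatives included DESeq2 1.42.0, other scalings, single batches and single libraries left out. The members and the lists were chosen with earlier results of these data known. The 142 promoter windows were searched for 16 motifs in RefSeq sequences of GRCm38.p6; no genome was used. Intervals of counting are not given, since every peak had counts in all libraries.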

Additional observations from a re-analysis of the deposited data

Results flagged for a closer look

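The shares and ratios of libraries and the CPM of the named peaks gave 226 groups of 6 libraries. In 8 of them, all of named peaks, 1 library lay far from the other 5. Chance alone would mark about 1 group in 20. On day 3, replicate 1 had 1.93 CPM in the Robo1 peak, below the next library at 3.20 CPM, replicate 3 had 0.431 CPM in the Smpx peak, below the next at 0.992 CPM, and replicate 3 had 12.7 CPM in the Tyw1 peak, above the next at 5.99 CPM. On day 0, replicate 6 had 2.58 CPM in the C130026I21Rik peak (next 1.22 CPM) and replicate 5 had 1.52 CPM in the Mapk10 peak of intron 2 (next 0.737 CPM). Replicate 4 of day 0 had 2.58 CPM in the Elavl4 peak (next 1.28 CPM) and 1.11 CPM in the Cngb3 peak (next 0.886 CPM), and replicate 3 had 3.13 CPM in the Sec1 peak (next 2.23 CPM).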

How the results depend on the processing

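Counts below are gains and losses of later-intron peaks in the order day 1 against day 0, day 3 against day 0 and day 3 against day 1. Apart from the main fit and the fit with the trend removed, they were not taken over all peaks. Whether the moves are particular to later introns is therefore not known. With all libraries and batch in the model they were 2425 and 211, 6879 and 2620, and 301 and 96. Leaving out single libraries gave ranges of 96 to 3437 and 2 to 455, of 5767 to 7398 and 1811 to 3353, and of 0 to 598 and 0 to 440. Without a batch term they were 0 and 0, 3097 and 882, and 0 and 0, where the edgeR fit with batch had 9433 and 7546 unadjusted p under 0.05 for the comparisons with day 1 and DESeq2 called 713 losses on day 1 against day 0 and 859 gains and 428 losses on day 3 against day 1. DESeq2 size factors gave 470 losses on day 1. Scaling by library size alone gave 7492 and 32 on day 1, and 145 and 842 on day 3 against day 1. Removing the trend with peak strength gave 546 gains on day 1, 4003 losses on day 3 against day 0 and 165 losses on day 3 against day 1. Fits of only the 2 days compared gave 5514 and 2000, and 1864 and 1709, for the comparisons with day 1. The batch with all 3 days gave 6306 and 2125 on day 1, 4150 losses on day 3 against day 0, and 1904 and 1664 on day 3 against day 1. The replicate block gave 1413 and 74 on day 1 and 21 losses on day 3 against day 1, whose pairing correlations were 0.013 to 0.127, and it moved no other count of peaks by over 1.5 times.

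Other fits were chosen after seeing the data, and their counts were not taken over all peaks either. A further term for each library's reads in peaks gave 248 and 4, 4567 and 1149, and 849 and 984. Removing the trend and the batch term together gave 0 and 0, 2442 and 1350, and 0 and 0. The batch with days 0 and 3 alone gave 1753 and 132, and leaving out the low day 3 libraries and day 1 gave 3769 and 670. With that further term the day 1 change of the Zfp981 peak was reversed, at -0.12 (adjusted p = 0.887). The causes of these moves were not tested.

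For the RNA of host genes, counts under alternatives were not taken over all genes. On day 1, DESeq2 called 618 host genes lower, and the fit of only days 1 and 0 called 171 higher and 182 lower. Single libraries left out gave 200 to 323 higher and 200 to 404 lower on day 1, and 975 to 1137 higher and 1233 to 1403 lower on day 3. The share of counts in later introns then differed by 1.67 to 1.83 points on day 1 against day 0, 0.794 to 1.24 on day 3 against day 0 and -1.02 to -0.297 on day 3 against day 1. The log2 ratio to distal intergenic counts differed by 0.0996 to 0.121, -0.0232 to -0.00255 and -0.114 to -0.0806, and that to first-intron counts by 0.00425 to 0.0286, 0.00624 to 0.0186 and -0.016 to 0.00414. Compared over both batches together, the ratio to first introns differed by -0.0475 on day 1 against day 0 and 0.0589 on day 3 against day 1, and in the batch with all 3 days the ratio to distal peaks differed by 0.0102 on day 3 against day 0. Of the 840 values that the 56 peaks named for day 3 against day 0 took without single libraries, 838 kept their call and direction. These peaks were largely named because they passed the test, so this was mostly set by their choice. Some of the libraries left out were of day 1, which is not part of that comparison. In the batch with days 0 and 3 alone, 16 of the 56 lost their call, and without the batch term 5 did. Day 1 rests on 3 libraries in 1 batch and the weakest peaks on few counts, which limits both.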
